A study of Mus musculus with 3 samples.

Results

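Potassium channel genes were examined in the H3K4me1 enriched regions of IFNγ, Il-1β, and TNFα treated mouse islets. The genes were the autosomal protein-coding genes of the GENCODE M1 annotation (mouse genome build mm9) whose symbol begins with Kcn, leaving out Kcnj11 and Kcnma1, and 90 of 21281 autosomal protein-coding genes met this rule. A region was assigned to a gene when it overlapped the gene or lay within 20 kb of any of its annotated transcription start sites (TSS), and the number of regions and the kb that they cover were counted for each gene. The rule uses no measured value.

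Islets came from CD1 mice of 8 to 12 weeks by the sample labels (the methods name ICR mice and a narrower age range) and were cultured for 4 days with TNFα at 0.16 ng/ml, IL-1β at 0.25 ng/ml and IFNγ at 1.6 ng/ml. DNA from 4 immunoprecipitations was pooled into 1 library, so the islets' endocrine cells cannot be told apart from the vascular, stromal and immune cells that islets also hold. H3K4me1 of untreated islets and the RNA-seq of treated and untreated islets were not analysed here, and every value below therefore describes treated islets and no change on treatment. With 1 library and a list of positions that carries no count or height, no difference could be tested and no depth is known: a gene without a region has none in the deposited list, and whether that list was made before or after the authors' filter on low enrichment is not given in the sources used here.

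Potassium channels let potassium ions leave the cell and so set the membrane potential. In β-cells, closure of the ATP-sensitive channel by glucose metabolism depolarizes the membrane and starts calcium entry and insulin release, whereas voltage-gated and calcium-activated channels end each action potential. H3K4me1 is a histone modification found at active and poised enhancers and around promoters, so a region marks a candidate regulatory element and is not a measure of expression.

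The members' promoters differed widely in base composition and in how regions lay on them, and 4 of them are shown as examples that do not span the full range. Each is the mm9 reference sequence from 250 bases before the first TSS (the most upstream annotated start) through the first 50 transcribed bases, read 5′ to 3′ on the gene's strand, with each CpG dinucleotide in capitals. Kcnk16 (chr14:21088335-21088634, minus strand) encodes the 2-pore channel TALK-1 of β-cells and held 4 CpG under a single region of 5.2 kb. Kcnh6 (chr11:105869188-105869487, plus strand) encodes an ERG-type voltage-gated channel and held 24 CpG inside a region of 12.6 kb.
Kcnk16: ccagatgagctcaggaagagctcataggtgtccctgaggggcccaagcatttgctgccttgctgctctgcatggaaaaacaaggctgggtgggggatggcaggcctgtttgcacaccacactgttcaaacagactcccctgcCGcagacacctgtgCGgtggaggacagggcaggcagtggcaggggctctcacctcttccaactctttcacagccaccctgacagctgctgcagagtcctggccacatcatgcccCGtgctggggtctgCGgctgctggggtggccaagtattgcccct
Kcnh6: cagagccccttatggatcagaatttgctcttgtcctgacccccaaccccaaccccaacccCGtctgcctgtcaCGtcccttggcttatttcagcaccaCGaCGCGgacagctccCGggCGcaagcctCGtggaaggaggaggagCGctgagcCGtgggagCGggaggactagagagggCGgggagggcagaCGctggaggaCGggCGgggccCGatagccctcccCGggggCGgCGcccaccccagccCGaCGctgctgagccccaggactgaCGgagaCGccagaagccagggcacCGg

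Kcnd2 (chr6:21165253-21165552, plus strand), a pore of the transient A-type current, held 22 CpG under a region, followed by a gene of 514 kb with only 1 other region. Kcnj16 (chr11:110829097-110829396, plus strand), an inward rectifier subunit, held 3 CpG and no region at all.
Kcnd2: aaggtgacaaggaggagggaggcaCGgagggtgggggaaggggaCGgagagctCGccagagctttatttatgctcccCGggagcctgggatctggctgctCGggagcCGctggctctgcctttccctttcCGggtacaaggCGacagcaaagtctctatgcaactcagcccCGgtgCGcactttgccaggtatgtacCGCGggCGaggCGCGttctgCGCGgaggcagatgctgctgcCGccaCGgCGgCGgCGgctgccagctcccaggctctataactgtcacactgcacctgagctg
Kcnj16: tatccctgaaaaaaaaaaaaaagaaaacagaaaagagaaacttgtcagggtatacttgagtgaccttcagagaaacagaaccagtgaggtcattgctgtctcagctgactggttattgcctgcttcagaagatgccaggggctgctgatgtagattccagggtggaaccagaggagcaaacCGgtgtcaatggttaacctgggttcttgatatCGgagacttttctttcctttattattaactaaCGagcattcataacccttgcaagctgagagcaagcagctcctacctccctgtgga

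Of the 90 genes, 88 (97.8%) held at least 1 region, against 78.5% of all autosomal coding genes. The median member had 3 regions covering 4.5 kb, close to the 3 regions and 4.4 kb of the median coding gene. A region lay over a TSS in 57 members (63.3%), against 40.7% of all genes, and 9 members (10%) held 10 or more regions, against 4.89%. The shares of genes with a region and with a marked start thus lay above the background, and the median number of regions and covered length lay at it. These are shares of genes in 1 library, and genes are not replicates.

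The regions were spread very unevenly over the family. The 9 genes with 10 or more regions held 198 of the 425 gene-region assignments (46.6%), whereas 21 genes had a single region and 39 had 1 or 2. Coding genes as a whole were also uneven, with quartiles of 1 and 4 regions and a maximum of 274, against 1.25, 4 and 41 for members. The share held by the most marked genes was not counted over all genes, so the unevenness is not read as particular to the family. The assignments came from 418 distinct regions with a summed length of 867.2 kb and a median width of 1.4 kb, against 1.2 kb for the 65124 autosomal regions. Only 7 of them (1.67%) were wider than 10 kb, against 2.03% of all autosomal regions. Of the 418 regions, 86 (20.6%) were also taken by a coding gene outside the family, and for 341 assignments (80.2%) the closest coding TSS was the channel gene's own.

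**Figure D1:**
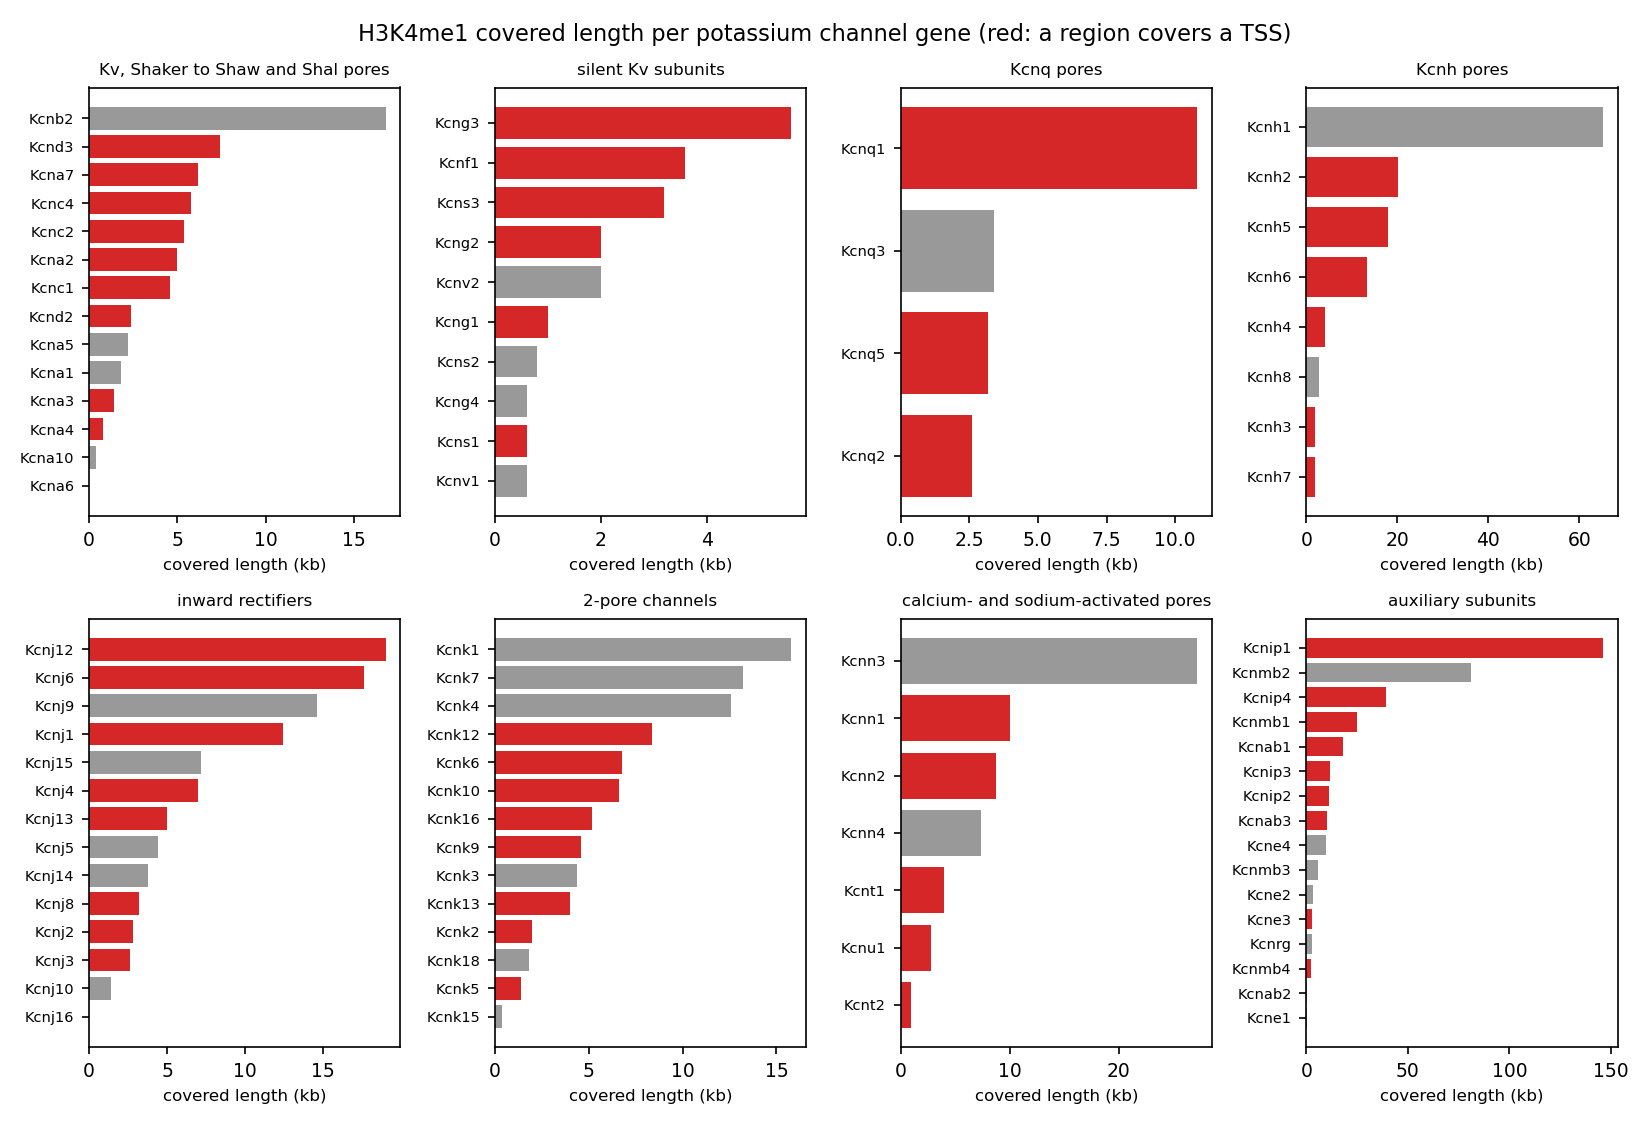
Length covered by H3K4me1 regions (kb, horizontal bars) for 87 of the 90 potassium channel genes, in 8 panels by subfamily, with red bars where a region covered an annotated TSS and grey bars where none did; the horizontal scale differs between panels. Kcnip1 reached 146 kb among the auxiliary subunits, while the silent subunits had at most 5.6 kb, and Kcna6 and Kcnj16 were at 0.

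Among the 16 voltage-gated pores of the Kcna to Kcnd subfamilies, 15 held a region and 11 had a covered TSS, with a median of 2 regions and 4.8 kb. Kcnb2, a Kv2 delayed rectifier pore, held 11 regions over 16.8 kb, of which 10 overlapped the gene and covered 4.01% of its 399 kb, and the nearest edge to its first TSS lay 10333 bp away.

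Kcnd3, a pore of the A-type current, had 7 regions, and the first and widest (2.6 kb) lay over the start while the other 6 were intronic and together brought the gene to 7.4 kb. Kcnc4, which encodes the Kv3.4 pore, had 3 regions and 5.8 kb with a covered TSS. Among the small Kcna genes outside clusters, Kcna7 had 6.2 kb and Kcna4 had 0.8 kb, both with a covered start. Of the 3 regions of Kcna7, only 1, of 1.8 kb, was closest to its own TSS. On chromosome 3, Kcna2 and Kcna3 had covered starts with 5.0 and 1.4 kb, and Kcna10 had 1 region of 0.4 kb away from its start. On chromosome 6, Kcna1 had 1.8 kb, Kcna5 had 2.2 kb and Kcna6 had 0, with no start covered, and the region nearest to Kcna6, 95880 bp from its first TSS, was the one in Kcna1.

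The 10 electrically silent subunits (Kcnf, Kcng, Kcns and Kcnv), which form no channel alone and modify Kv2 pores, had the least: a median of 1 region and 1.5 kb, and 20 kb in all. They were also the shortest subfamily, with a median length of 10.2 kb and 0 genes over 100 kb. Median lengths of the other subfamilies rose to 291 kb in Kcnq, and the part of length in differences between subfamilies was not tested. Kcng3 held 4 regions and 5.6 kb, including one of 3.4 kb over its start. Kcnf1 had 1 region of 3.6 kb that covered 68.8% of this short gene, and Kcns3 had 2 regions and 3.2 kb. Kcng2, a silent subunit known in islets, has an annotated record of only 0.705 kb, which lay whole under its single region of 2.0 kb. Its full coverage and covered start describe that short record. A start was covered in 6 of the 10.

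Kcnq genes, which encode slowly activating voltage-gated pores, had a median of 5 regions and 3.4 kb in 5 genes, of which 4 had a covered start. Kcnq1, a gene of 320 kb, had 6 regions and 10.8 kb, of which 5 regions overlapped the gene and covered 1.83% of it. Its widest, of 5.6 kb, lay over the start. Kcnq3 and Kcnq5, both known for the neuronal M-current, were sparse for their length, with 5 regions and 3.4 kb at a gene of 291 kb and 2 regions and 3.2 kb at one of 564 kb. The regions of Kcnq3 included none over a TSS, the nearest beginning 386 bp from the first.

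The 8 Kcnh genes, pores of the EAG, ERG and ELK types, covered 127.8 kb together, and 6 had a covered start. Kcnh1 (chr1:194014666-194334041) alone held 23 regions and 65.2 kb, or 20.4% of the gene, yet its first TSS was bare, with a region of 7.8 kb starting 535 bp inside. Its widest region, of 12.2 kb (chr1:194272201-194284400), began 257535 bp into the gene, and 2 more of 7.2 kb followed it towards the 3′ end. Kcnh2, the ERG1 pore that repolarizes the heart and is also present in islets, had 4 regions and 20.2 kb. A single region of 16.2 kb (chr5:23840801-23857000) ended 422 bp inside the first TSS and took up much of the gene, of which 58.1% was covered. A smaller one began 379 bp upstream, so that the first TSS itself lay in a gap, while an internal start 22013 bp downstream was covered.

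Kcnh6 differed from Kcnh2 in that 1 region of 12.6 kb (chr11:105863401-105876000) lay across its first TSS and all 4 annotated starts. Kcnh5 had 12 regions and 18 kb and was covered over 6.18% of its 280 kb, with 1 of 2.2 kb over the start and the other 11 in introns. Kcnh7 and Kcnh8 were at the opposite end, with 2.0 and 2.8 kb at genes of 491 and 179 kb. Kcnh7 nevertheless had its start covered, and Kcnh8 did not.

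The 14 inward rectifier genes (Kcnj) held a median of 3.5 regions and 4.7 kb, and 8 had a covered start. Kcnj12, a strong rectifier of muscle, had 6 regions and 19 kb and was covered over 37.3% of its 48.6 kb, with 3.6 kb over its start and an intronic region of 9.6 kb. Kcnj6 (GIRK2, opened by G protein-coupled receptors) had 13 regions and 17.6 kb and was covered over 6.96% of its 248 kb, with a region of 2.6 kb over the start. The other GIRK genes had less: Kcnj3 (GIRK1) had 3 regions and 2.6 kb, and Kcnj5 (GIRK4) had 4 regions and 4.4 kb, none inside the gene, the nearest 179 bp upstream. Kcnj9 (GIRK3) had 4 regions and 14.6 kb, of which 11 kb was a region in the neighbouring gene Igsf8 (chr1:174233801-174244800). Kcnj8 (Kir6.1), a pore of vascular ATP-sensitive channels, had 2 regions and 3.2 kb with a covered start.

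Neighbouring Kcnj genes shared regions or differed sharply. Kcnj9 and Kcnj10 shared 2 regions (1.4 kb), which were all that Kcnj10 had, and Kcnj1 and Kcnj5 shared 1 of 0.8 kb between their divergent starts. On chromosome 11, Kcnj2 had a region of 2.8 kb over its start, whereas Kcnj16 had none, and that region of Kcnj2 was the nearest to Kcnj16, 96854 bp from its first TSS.

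The 14 genes of 2-pore channels (Kcnk), which carry background potassium current, all held a region, with a median of 3 regions and 4.9 kb and 8 covered starts. Kcnk1 (TWIK-1) had 4 regions and 15.8 kb, mostly in intronic regions of 8.2 and 5.4 kb, so that 42.7% of the gene was covered while its TSS was bare. The next in covered length, Kcnk7 with 13.2 kb and Kcnk4 with 12.6 kb, lie among closely packed genes. Kcnk7 had no region inside the gene, and 4 of the 5 regions of Kcnk4 were closest to the TSS of another gene. Kcnk16 had 1 region of 5.2 kb (chr14:21084801-21090000), which covered its start and 55.9% of the gene. Kcnk3 (TASK-1) had 4 regions and 4.4 kb, the first starting 258 bp inside the gene, and Kcnk2 had 2 regions of 1.0 kb each in and near a gene of 136 kb.

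The 7 Kcnn, Kcnt and Kcnu genes are called calcium- and sodium-activated pores here, a group made by symbol and not by the gating of each channel, Kcnu1 included. Their median was 4 regions and 7.4 kb, and 5 had a covered start. Kcnn3 (SK3, opened by calcium) had 16 regions and 27.2 kb, of which 13 regions overlapped the gene and covered 17.5% of its 148 kb, the widest an intronic one of 8.2 kb, while its first TSS lay 315 bp from the nearest region. Kcnn1 had 4 regions and 10 kb, but only the 1 of 1.8 kb over its start was closest to its own TSS, and the others were closest to another gene's. Kcnn2 had 5 regions and 8.8 kb, 2 of them over annotated starts 291149 bp apart. Kcnn4 (IK), the intermediate-conductance calcium-activated channel of blood cells and islets, had 2 regions and 7.4 kb and no covered start. The wider region, of 5.6 kb, was closest to the TSS of another gene. Kcnt2 and Kcnu1 had 1.0 and 2.8 kb, with covered starts.

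Auxiliary subunits, which join pores without forming one, held the largest share: their 16 genes (Kcnab, Kcne, Kcnip, Kcnmb and Kcnrg) summed to 369.8 kb, in which the 25 kb shared by Kcnip1 and Kcnmb1 counts for both, with a median of 3.5 regions and 9.9 kb, and 9 had a covered start. Kcnip1 (chr11:33529339-33893152), a calcium-binding partner of Kv4 pores, held 41 regions and 146 kb, so that 40.0% of its 364 kb was covered, and ranked 26th by regions and 18th by covered length among 2279 coding genes of at least 100 kb. Kcnmb2 (chr3:31801429-32099102), a β subunit of the large-conductance calcium-activated channel, also held 41 regions and 81.0 kb, of which 39 regions overlapped the gene and covered 25.9% of it, and ranked 26th and 93rd. Both were marked inside and bare at the first TSS. In Kcnip1, 39 of the 41 regions were intronic, 1 covered a group of 3 internal starts 149567 to 149691 bp downstream, and the nearest edge to the first TSS was 1352 bp away. In Kcnmb2, 38 were intronic and the nearest edge was 2172 bp away.

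The widest region of all members, of 20.8 kb (chr11:33862001-33882800), lay in an intron of Kcnip1 and contained the whole of Kcnmb1, a gene of 10.6 kb on the opposite strand that encodes another β subunit. Kcnip1 and Kcnmb1 shared 4 regions and 25 kb, which were all the regions of Kcnmb1, and whose they are cannot be told apart from positions. When a region counted only for the gene with the closest TSS, Kcnip1 kept 22 of its 41. Kcnip4, another Kv4 partner, had 27 regions and 39.2 kb, but they filled only 3.41% of its 1135 kb, and its longest stretch without a region ran for 174 kb. Kcnip2 had 7 regions and 11 kb, of which 2 overlapped the gene. Kcnab1, a β subunit of Kv1 pores, had 6 regions and 18.2 kb, and the widest (10.2 kb) lay over coding exons near its 3′ end. Kcnab2, by contrast, had no region in its 87.1 kb and 1 of 0.6 kb starting 621 bp upstream.

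**Figure D2:**
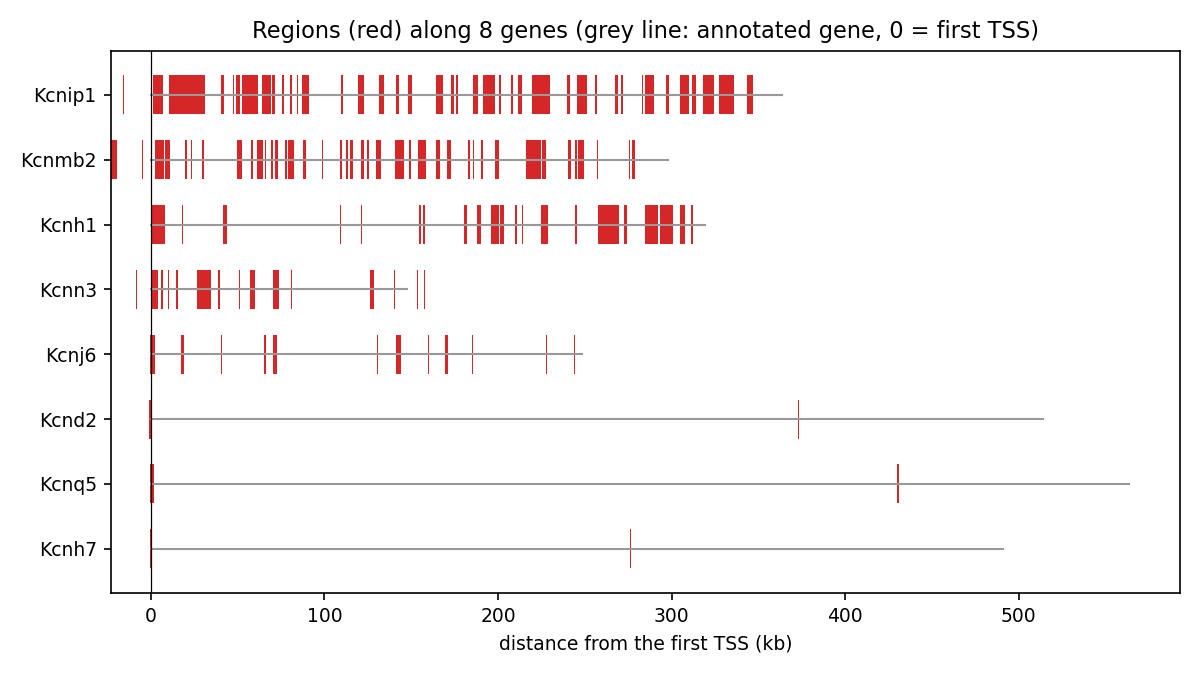
Position of the regions (red blocks, drawn to scale in kb from the first TSS at 0, with positive values downstream) along 8 genes (grey lines give the annotated gene). Regions followed each other closely along Kcnip1 and Kcnmb2, and in Kcnh1 after a stretch of 65.2 kb without one, whereas Kcnd2, Kcnq5 and Kcnh7, which are longer, had 1 region at the start and 1 far inside.

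The longest genes thus fell at both ends. Of 22 members of 100 kb or more, none was without a region, against 95.6% of all coding genes of that length with one, and their median of 5.5 regions and 8.1 kb was below the 8 regions and 11.4 kb of all 2279 such genes, and the median share of the gene covered was 2.46% against 4.84%. The members were the longer set, with a median of 294 kb against 168 kb, and the part of length within this class was not tested. The 10 genes of 50 kb or more with the smallest covered share were Kcnab2 and Kcnj16 at 0, followed by Kcnd2 (0.213% of 514 kb), Kcnt2 (0.221% of 366 kb), Kcnh7 (0.274%), Kcnq5 (0.465%), Kcnk2 (0.670%), Kcnu1 (0.799%), Kcnh8 (1.003%) and Kcnq3 (1.17%). A region over a TSS was present in 6 of them (Kcnd2, Kcnt2, Kcnh7, Kcnq5, Kcnk2 and Kcnu1).

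**Figure D3:**
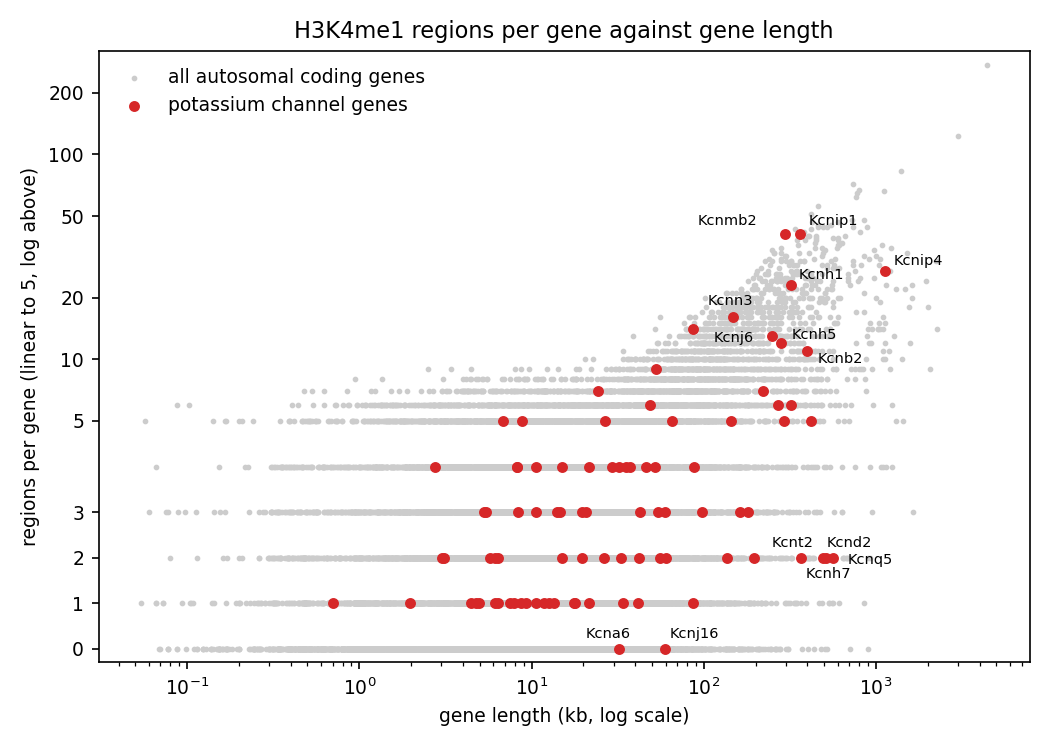
Regions per gene (vertical, linear to 5 and logarithmic above) against gene length (kb, logarithmic) for all 21281 autosomal coding genes (grey) and the 90 potassium channel genes (red). Kcnip1 and Kcnmb2 stood at 41 regions, while 4 genes of over 300 kb (Kcnd2, Kcnh7, Kcnq5 and Kcnt2) had 2 each.

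Short members lay above their class. In the class under 10 kb, 24 of 24 members held a region, against 62.5% of all coding genes of that length, with a median of 2 regions and 3.2 kb against 1 and 2.2 kb. These members were also the longer set, with a median of 6.13 kb against 3.26 kb, and the part of length was not tested. A region was held by 100% of members against 85.2% of all genes at 10 to 30 kb, and by 91.3% against 90.1% at 30 to 100 kb, which is at the background. Members of 10 to 30 kb had a median of 3 regions and 5.8 kb against 2 and 4.6 kb, and those of 30 to 100 kb had 3 regions and 4.4 kb against 3 and 5.8 kb. A covered TSS was more frequent among members in every class: 50% against 27.9% under 10 kb, 61.9% against 46.2%, 69.6% against 47.7%, and 72.7% against 58.8% at 100 kb and over.

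Counting the first TSS alone, 1 position per gene, 49 members (54.4%) had it covered, against 32.4% of all genes. It was bare with a region within 2 kb on both sides in 3 members (3.33%), Kcne4 and Kcnh2 among them, against 10.3% of all genes. A region lay within 2 kb on 1 side in 19 (21.1% against 18.3%), and in a further 19 (21.1% against 39.0%) no region was that close. In 8 members the first TSS was bare and a later one covered, among them Kcng1, Kcnh2, Kcnip1, Kcnip2, Kcnj3 and Kcns3. The later start lay 228 bp downstream in Kcnip2, 469 bp in Kcns3, 604 bp in Kcng1 and 1186 bp in Kcnj3.

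**Figure D4:**
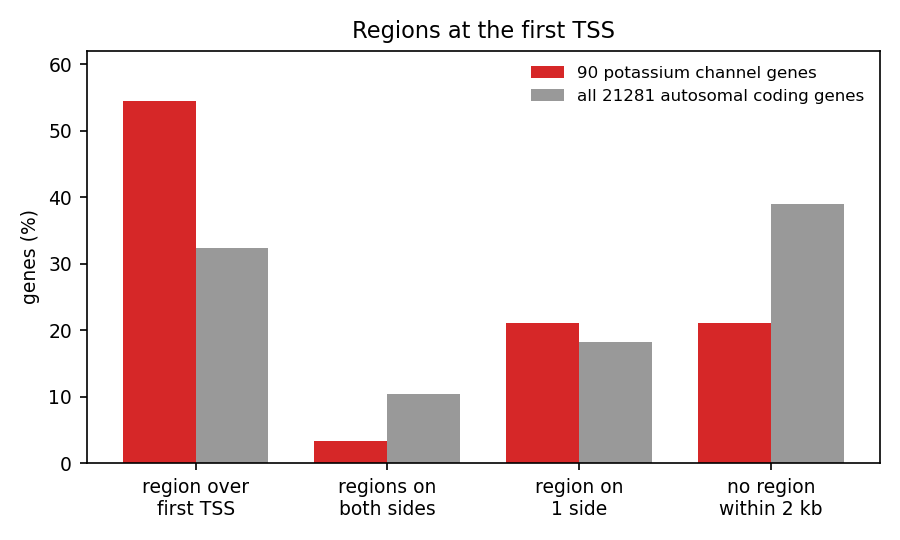
Share of genes (%) by the regions at the first TSS, for the 90 potassium channel genes (red) and all 21281 autosomal coding genes (grey). The channel genes had the higher share of covered starts (54.4 against 32.4%) and the lower share flanked on both sides (3.33 against 10.3%).

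Around the first TSS, the members' coverage was higher than that of all genes at the start itself, about equal on either side of it, and lower far upstream. Within 1 kb of it, an average of 44.2% of members were covered at a given position, against 30.5% of all genes, and the members' highest value, 55.6% at 200 bp downstream, stood beside 32.5%. From 1 to 5 kb downstream the values were 20.2 and 22.4%, and from 5 to 20 kb downstream 11.1 and 11.3%. Upstream, they were 10.2 and 10.9% from 5 to 1 kb before the start, and 4.86 and 8.12% from 20 to 5 kb before it.

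**Figure D5:**
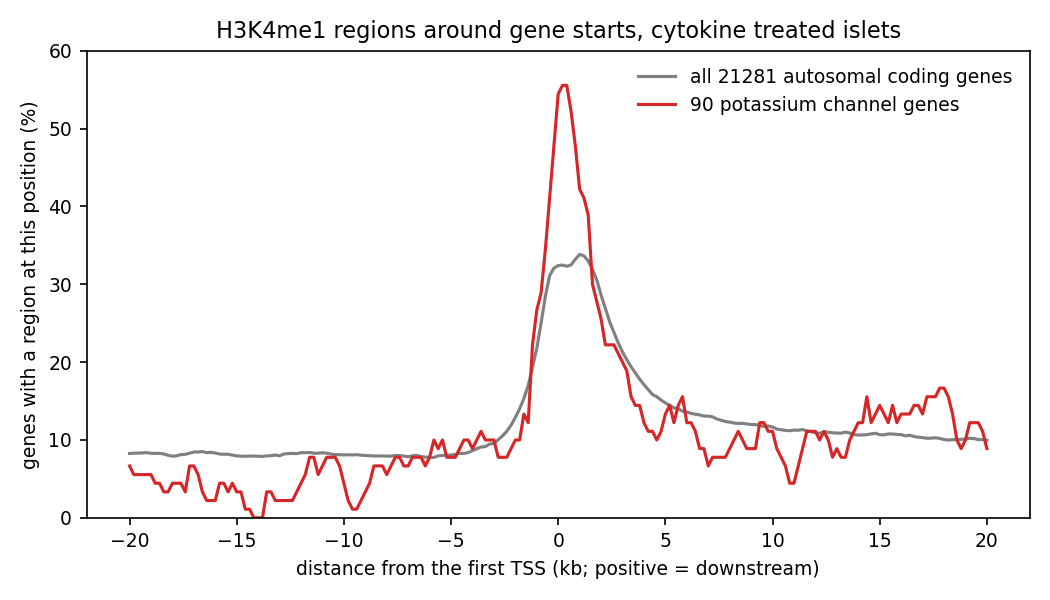
Share of genes (%) with a region at each position, in steps of 200 bp, from 20 kb before to 20 kb after the first TSS, for the 90 potassium channel genes (red) and all 21281 autosomal coding genes (grey). The red curve reached 55.6% just downstream of the start and lay above the grey one there, and it was the lower one in the far upstream part.

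Base composition of the promoters was much like that of other genes, while the coverage was not. CpG-rich promoters (observed over expected CpG of at least 0.6 and GC content of at least 50% in the 300 bp described above) were found in 36 members (40%), against 42.9% of all genes. In these the first TSS was covered in 27 of 36 (75%), against 45.3% of all genes with such promoters, and in the other members in 22 of 54 (40.7%), against 22.7%. Covered starts were thus more frequent in CpG-rich members, and more frequent in members than in all genes in both classes. CpG-rich members had a median of 3 regions and 4.5 kb, against 4 and 7.4 kb in all such genes. The other members also had 3 regions and 4.5 kb, against 1 and 2 kb. A region was held by 100% against 97.5% in the CpG-rich class and by 96.3% against 64.2% in the other. Members were the longer set in both classes, and the part of length was not tested. The promoter of Kcnk16 shown above was of the CpG-poor kind and covered, that of Kcnj16 was CpG-poor and bare, and those of Kcnh6 and Kcnd2 were CpG-rich and covered.

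By position, 341 of the 425 assignments (80.2%, exact 95% binomial interval 76.1 to 83.9%, covering counting error only) overlapped the gene. The interval treats assignments as independent, which they are not, since 9 genes gave 46.6% of them and 7 regions were taken by 2 or more members. Introns held 244 (57.4%), coding exons 24 (5.65%) and other exons 7 (1.65%), and 66 (15.5%) lay over a TSS. A further 58 (13.6%) lay upstream of the gene and 26 (6.12%) downstream. These shares were not counted over all genes and are not read as particular to the channel genes. The median width was 2.0 kb over a TSS, 2.2 kb over other exons, 1.5 kb over coding exons and 1.2 kb in introns. Within members of 100 kb or more, 34.4, 33.5 and 32.1% of the region midpoints inside the gene fell in the first, middle and last of 3 equal parts, against 41.8, 31.9 and 26.3% in all genes of that length. Kcnip1, Kcnmb2, Kcnip4 and Kcnh1 gave 128 of these 221 midpoints, and the other 18 genes had 37.6, 30.1 and 32.3%. Kcnh1 was uneven, with 13.0% in its first part and 43.5% in each of the others. In 16 of the 88 members with a region (18.2% against 11.7% of all genes with one), every region lay within 2 kb of a TSS, but this held for 0 of the 22 members of 100 kb or more, against 4.13% of all genes of that length with a region.

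The 18 genes listed as channels known in islets all held a region, with a median of 4 regions and 9.1 kb, and 12 had a covered TSS. These counts lie near the shares of all members given above (97.8 and 63.3%), so nothing is read from them about the list, and the list was chosen with earlier results known. The 6 without were Kcnb2, Kcnk1, Kcnk3, Kcnj5, Kcnn3 and Kcnn4. Among partners of potassium channels that are not named Kcn, 9 of 9 held a region and 6 had a covered TSS, against 78.5 and 40.7% of all coding genes. Abcc8 (SUR1), the sulfonylurea receptor of the β-cell ATP-sensitive channel, had 80.8 kb in 5 regions, and its relative Abcc9 (SUR2) had 7.0 kb. Amigo1, a partner of Kv2 pores, had 30.4 kb, while Dpp6 and Dpp10, partners of Kv4 pores, had 17.6 and 9.6 kb. The γ subunits of the large-conductance channel had 10 kb (Lrrc26), 1.4 kb (Lrrc52), 7.8 kb (Lrrc55) and 4.4 kb (Lrrc38). The pores left out by the rule, Kcnj11 and Kcnma1, had 3 regions with 20.6 kb and 34 regions with 72.4 kb, and both had a covered TSS.

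Other ion channel genes gave a mixed background. The 25 autosomal genes named Cacn, which encode subunits of voltage-gated calcium channels, had a median of 6 regions and 7.8 kb, and 16 (64%) had a covered TSS. The 13 genes of sodium channel subunits (Scn) had 2 regions and 2.8 kb, and 6 (46.2%) had one. Their median lengths were 111 kb (Cacn) and 85.9 kb (Scn), against 30.7 kb for the potassium channel genes, and the part of length was not tested. The share of 63.3% in potassium channel genes lay beside that of Cacn and above that of Scn, and with so few genes no more is read from it.

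The tissue label was checked against marker genes, with the limit that a covered TSS is not expression. Of 15 islet endocrine markers, 14 held a region but only Ins2, Slc2a2 and G6pc2 had a covered TSS, and Gcg, the glucagon gene, had 0 regions. A region was held by 3 of 5 leukocyte markers, 2 of 4 of endothelium and stroma, 4 of 4 annotated exocrine markers and 4 of 4 annotated markers of neurons and glia, and a TSS was covered in 1, 2, 2 and 2 of these. Over all coding genes the shares were 78.5% with a region and 40.7% with a covered TSS, and the 3 of 15 endocrine markers with a covered TSS lay below this. By these counts the check does not separate tissues. Covered length was not part of it. It was 0 kb at Gcg, 0.8 kb at Sst and 5.0 to 36.2 kb at the other endocrine markers, above the 4.4 kb of the median coding gene. The other lists lay on both sides of that median. They ran from 0 to 13.6 kb (leukocytes), 0 to 28.0 kb (endothelium and stroma), 0.8 to 21.2 kb (exocrine) and 3.2 to 43.0 kb (neurons and glia). Which cells carry the regions at the channel genes was not tested.

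Many neuronal channel genes hold a binding motif of the repressor REST (RE1), which keeps neuronal genes off in most other tissues, so member regions were searched for its core (CAGCACC, any 2 bases, then GGACAG) on both strands. A core lay in 4 of 418 member regions (0.957%) and in 95 of 65124 autosomal regions (0.146%). Shown here are 3 of them, with 8 flanking bases on each side of the capitalized core, from mm9 and on the strand that reads the core. They lay at chr1:194281596-194281626 (minus strand) inside the 12.2 kb region of Kcnh1, at chr2:25719588-25719618 (minus strand) 288 bp downstream of the first TSS of Kcnt1, and at chr5:23863423-23863453 (minus strand) -6016 bp from that of Kcnh2.
Kcnt1: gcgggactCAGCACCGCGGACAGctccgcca
Kcnh1: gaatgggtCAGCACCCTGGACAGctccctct
Kcnh2: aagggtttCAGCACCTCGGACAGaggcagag

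The genes and windows of all members held 9 such cores, of which 4 (44.4%) fell in a region, and the autosomes held 610, of which 102 (16.7%) did. The 5 outside regions were at Kcnh4, Kcnk10, Kcna10, Kcnab2 and Kcnn4. With 1 mismatch allowed in the core, 9 member regions (2.15%) held it, against 1.17% of autosomal regions. The promoter of Kcnh6 shown above holds the same letters with a wider gap, at -151 bp, and a search for a gap of 7 to 9 bases, made after that sequence was seen, found 690 on the autosomes, of which 67 (9.71%) lay in regions, and this 1 at a member. A match is a run of letters and does not show that REST binds there.
Kcnh6: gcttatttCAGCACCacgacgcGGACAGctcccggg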

How the data were processed

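H3K4me1 ChIP-seq of cytokine treated islets was used as deposited. The authors mapped the reads to NCBI37/mm9 with Bowtie2 (version 2.2.1 in the submitters' processing notes) and identified enriched regions with ChromHMM, whose version and settings are not given in the sources used here. The deposited list holds only the chromosome, start and end of 65709 regions, with all edges on a 200 bp grid and no count, signal or score, so the depth is unknown, an edge is known to 200 bp at best, and a missing region can reflect depth or threshold. Positions were counted from 1 and read against the NCBIM37 genome and GENCODE M1 genes (autosomes 1 to 19).

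Regions were counted for each gene by the rule given in the report with Python 3.11.15, numpy 2.4.6 and pandas 2.3.3, and the main counts, medians and shares of genes were set beside the same values over all autosomal coding genes, whole or in length classes with edges at 10, 30 and 100 kb. Region positions, shared regions, subfamilies and gene lists were described alone. No test was made. Kcnb2 and Kcnh8 have 2 gene records each, and the longer one was used. Promoter sequences came from mm9 and not from RefSeq, whose table is on another build. Counting of regions over gene bodies and their covered length was tested on simulated regions, with the planted number recovered in 390 of 390 genes. The search for the RE1 core was tested on cores planted in random sequence. The 20 kb window, covered starts and closest TSS were not part of these tests.

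Genes were named by rule: the 15 with most regions, the 10 with most covered length, the 10 of at least 50 kb with the smallest covered share, the list of channels known in islets, the first 3 of each subfamily by covered length, those with the 5 widest regions, those that share a region and those with an RE1 core. Some genes met by this rule are not reported here. Channels outside it were named for their place in a cluster or subfamily after their values were seen. The members and lists were chosen with earlier results of these data known. The states of the first TSS, CpG classes, promoters shown, parts of long genes, Cacn and Scn genes, and RE1 gaps of 7 to 9 bases were chosen after values were seen.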

Additional observations from a re-analysis of the deposited data

How the results depend on the processing

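Alternatives changed the distance from a TSS (5 or 50 kb), the regions (at least 1000 bp wide, or merged over gaps of up to 1000 bp), the assignment (closest coding TSS, or gene body only), the TSS used (protein-coding transcripts) and the members (73 with no other member within 100 kb). Of 170 values, 141 moved by at most 1.5 times (a share within its interval) and 29 moved further. The number of members with a region and with a covered TSS did not move that far under any alternative run. With 50 kb, the median rose to 5 regions and 8.6 kb per member. The median covered length was 2.5 kb with the closest TSS and 2.8 kb in the gene body. With the closest TSS, median regions were 1 for 2-pore channels, 1 for Kcna to Kcnd pores, 3 for Kcnq, 2 for auxiliary subunits, 2 for calcium- and sodium-activated pores and 2 for inward rectifiers, and 88.6% of assignments overlapped the gene. Regions of at least 1000 bp gave medians of 2 for Kcnq and 2 for calcium- and sodium-activated pores. The RE1 core, in 4 member regions, was in 9 with 1 mismatch, in 2 with regions of at least 1000 bp and in 1 with the gap of 7 to 9 bases, an alternative chosen after seeing the data. Among named genes, 13 values moved, all counts of regions, among them Kcnip1 (41 to 22 with the closest TSS), Kcnq1 (6 to 11 with 50 kb), Kcnip2 (7 to between 2 and 11), and, with regions of at least 1000 bp, Kcnip4 (27 to 10), Kcnn3 (16 to 7), Kcnb2 (11 to 6) and Kcnd3 (7 to 3).

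No paired analysis was possible because the regions come from a single pooled library, which also leaves no replicate to omit.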
